A study of Mus musculus with 2 samples.

Results

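The genes of vitamin A (retinoid) metabolism were examined in mouse liver, with retinol saturase (Retsat), retinol-binding protein 4 (Rbp4), transthyretin (Ttr), lecithin retinol acyltransferase (Lrat), the retinol dehydrogenases Rdh11 and Rdh16, alcohol dehydrogenase 1 (Adh1), retinal dehydrogenase 1 (Aldh1a1) and the retinoic acid hydroxylase Cyp26a1 as members. These 9 genes were chosen by symbol, with results of the same arrays known, and every probe set annotated to 1 of them alone was taken. They hold 15 of the 45101 probe sets on the array, and 9 of the 18193 genes that have a probe set of their own. Of the 15 probe sets, 14 lay above the signal floor explained below, and each gene had at least 1 above it.

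By the brightest probe set of each gene, Retsat was the only member that differed by 1.5-fold or more. Of all genes past the floor, 6.75% reached that fold on the DEF/FOS side and 7.82% on the DEF/CT side. Beside those shares, nothing is read from a count of 1 in 9. The Retsat signal was higher in DEF/FOS liver, by 2.47-fold in the brighter of its probe sets. The other 8 members lay within 1.5-fold, from 0.48 (Rdh16) to -0.51 (Rdh11) on the log2 scale. The carriers Rbp4 and Ttr, the dehydrogenase Adh1 and the retinoic acid hydroxylase Cyp26a1 differed by no more than 0.14 on that scale in either direction.

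The liver is the main store of vitamin A. Retinol taken up by hepatocytes is passed to hepatic stellate cells and esterified there by Lrat, and it leaves the liver bound to Rbp4 and Ttr in plasma. Inside cells, alcohol and retinol dehydrogenases oxidise retinol to retinal, retinal dehydrogenases oxidise retinal to retinoic acid, and Cyp26 enzymes hydroxylate retinoic acid for removal. Retinoic acid acts through nuclear receptors of the RAR family, paired with RXR, and Cyp26a1 is itself a classic gene switched on by it. Retsat reduces a double bond of retinol to give dihydroretinol, and it is also known as a target of the fatty acid receptor PPARα.

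Both groups were male C57Bl/6J mice, 9 weeks old at the start and kept for 1 week before the diets began, and both were fed a diet low in n-3 polyunsaturated fatty acids (PUFA), with sunflower oil replacing soybean oil, in a study of 112 days. For the final 10 days the DEF/FOS group stayed on that diet and also drank fructooligosaccharides (FOS), fermentable sugar chains, aiming at 0.25 g per day, while the DEF/CT group received the soybean oil control diet instead. The n-6 to n-3 ratio of the diets was 127.2 (depleted) and 6.9 (control), per the labels. The groups thus differed in fibre and in oil at once, and these cannot be told apart. The labels list 8 mice in either group, and RNA was pooled within a group, in equal amounts from each of 4 to 8 mice, before hybridisation to 1 array. DEF/FOS liver and DEF/CT liver stand below for these pools. Spread between animals was therefore not measured, and no value below has a replicate, a test or a p-value.

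Each deposited value is a MAS5 signal, the Affymetrix summary of 1 probe set on a linear scale. Differences are log2 DEF/FOS minus log2 DEF/CT, centred on their median over probe sets above a floor, and folds are computed from them. The floor was the median, over all non-control probe sets, of the mean log2 signal, equal to a signal of 19.4, and it is not a detection call. Over all probe sets the DEF/FOS array had a median signal of 19.6 and the DEF/CT array one of 22.0. Among 11163 genes above the floor, each represented by its brightest probe set, 6.75% were at least 1.5-fold higher in DEF/FOS liver, 7.82% at least 1.5-fold lower and 1.74% at least 2-fold higher. The SD between the differences of probe sets that share a gene was 0.38 on the log2 scale over 4885 genes. Grouped by the signal of a gene's brightest probe set, it was 0.52 from the floor to 84.3, 0.36 from there to 1000 and 0.26 from 1000 upwards. This SD shows how far probe sets of a gene disagree within the same 2 arrays. It does not measure spread between arrays, pools or animals, so a difference above it is not thereby shown to be repeatable. In bulk liver RNA, fewer cells of a type and less RNA per cell cannot be told apart.

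The upstream sequences of 2 members are given because one of them showed the only fold above 1.5 and the other is the gene whose promoter is best known for answering to retinoic acid. Cyp26a1 was added after its values had been seen. Both runs are the 250 bases before the annotated start, from RefSeq on GRCm38.p6, on the plus strand. They lie at chr6:72598352-72598601 for Retsat and at chr19:37697558-37697807 for Cyp26a1. Capitals mark matches, on either strand, to any of 4 hexamers, short elements that RAR, RXR and PPAR receptors bind in pairs. The canonical one is AGGTCA, the variant with one other base is AGTTCA, and the forms of both that start with G are GGGTCA for the canonical one and GGTTCA for the variant.
Retsat: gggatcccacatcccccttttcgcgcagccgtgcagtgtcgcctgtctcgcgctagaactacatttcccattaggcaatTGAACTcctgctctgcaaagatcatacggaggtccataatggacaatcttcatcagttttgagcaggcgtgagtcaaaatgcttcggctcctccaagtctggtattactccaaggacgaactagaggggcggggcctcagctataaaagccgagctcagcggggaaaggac
Cyp26a1: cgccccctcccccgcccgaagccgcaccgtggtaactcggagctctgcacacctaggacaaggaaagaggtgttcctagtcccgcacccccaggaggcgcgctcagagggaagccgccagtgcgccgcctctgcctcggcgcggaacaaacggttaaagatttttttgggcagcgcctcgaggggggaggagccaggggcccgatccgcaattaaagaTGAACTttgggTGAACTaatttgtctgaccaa

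Retsat held 1 such hexamer, TGAACT at positions -171 to -166 from the start, which is AGTTCA on the other strand. Cyp26a1 held TGAACT at positions -32 to -27 and again at -21 to -16. These form a direct repeat with a spacer of 5 bases (DR5), the arrangement classically bound by RAR with RXR. A DR5 of these hexamers was found in 0.0883% of 32851 promoter windows of the same length. At least 1 hexamer was found in 38.6% of them. Among the members, 8 had promoter entries, 11 in all counting alternative starts, and 7 of the 11 held a hexamer. The member windows contained no direct repeat with a spacer of 1 (DR1, the PPAR arrangement) or of 2, which says only that these letters are not in these windows. A match is not evidence of binding.

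Retsat, on chromosome 6, had signals of 4814 in DEF/FOS liver and 1967 in DEF/CT liver by its brighter probe set. By the other probe set the signals were 1667 in DEF/FOS liver and 503 in DEF/CT liver. Both probe sets were higher in DEF/FOS liver, by 1.31 (2.47-fold) and by 1.74 (3.35-fold) on the log2 scale. Each of these differences was larger than the SD of 0.26 between probe sets of genes at such signals. By the brighter probe set Retsat stood at place 85 of 11163 when genes were ordered from the highest difference down. Among the 6751 genes with signals of 84.3 or more, 0.918% were at least 2-fold higher in DEF/FOS liver.

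**Figure D1:**
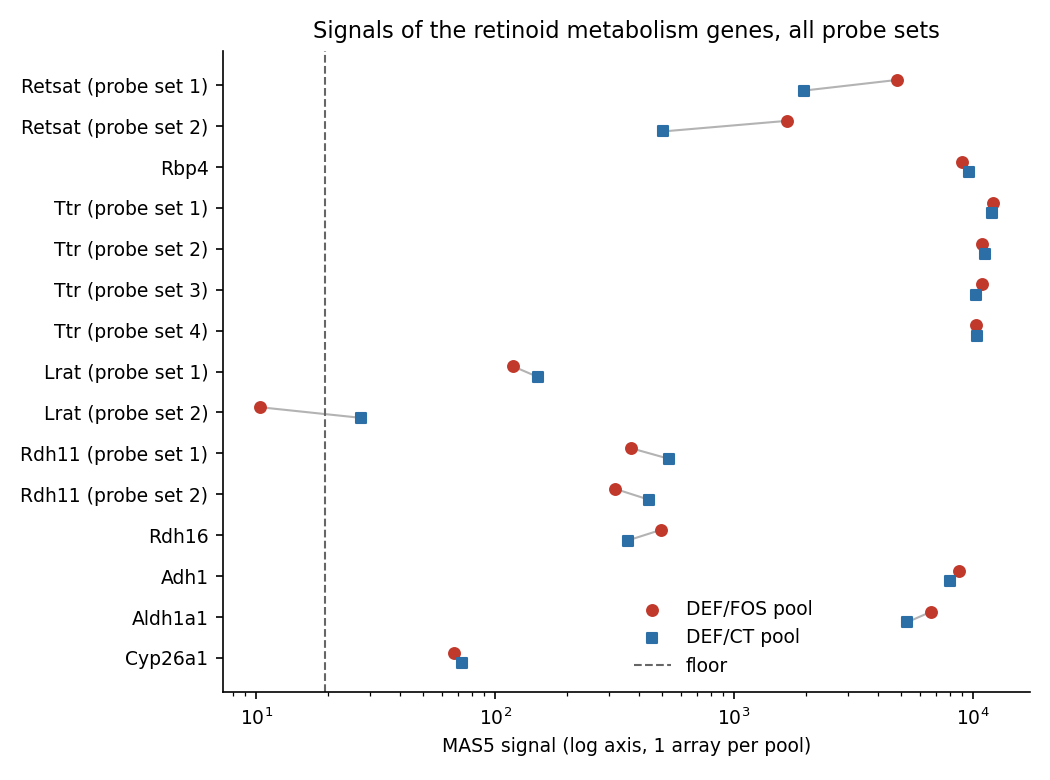
MAS5 signal on a log axis for all 15 probe sets of the 9 members, with circles for the DEF/FOS pool, squares for the DEF/CT pool, 1 array each, and the floor as a dashed line. Both Retsat probe sets are far to the right in DEF/FOS liver (4814 against 1967 and 1667 against 503), both Rdh11 probe sets lie to the left, and the 4 Ttr probe sets nearly coincide.

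Closest to Retsat in difference and mean signal, by Euclidean distance between these 2 log2 values over 2 arrays, were Ehhadh, Ephx1 and Ugt2b35. Genes with only a clone or model name (RIKEN, Gm or LOC symbols) were left out of this ranking. Ehhadh, the bifunctional enzyme of peroxisomal fatty acid oxidation, had signals of 4955 in DEF/FOS liver and 1992 in DEF/CT liver, at a distance of 0.038. The epoxide hydrolase Ephx1 lay at a distance of 0.11, with a difference of 1.36. The glucuronosyltransferase Ugt2b35 lay further away, at 0.57, with signals of 3351 in DEF/FOS liver and 1928 in DEF/CT liver. With 1 difference per gene, such closeness carries no information beyond these arrays.

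The carriers that take retinol out of the liver were nearly equal in the 2 pools. Rbp4, the plasma carrier of retinol, had signals of 8982 in DEF/FOS liver and 9611 in DEF/CT liver, a difference of -0.08. Ttr, which binds the Rbp4-retinol complex and also carries thyroid hormone, had signals from 10253 to 12134 in DEF/FOS liver over its 4 probe sets, and from 10243 to 12003 in DEF/CT liver. The Ttr differences ran from -0.03 to 0.11, with both signs among the 4. Every one of these values is smaller than the SD of 0.26 between probe sets. The highest signal of any probe set was 15844 in the DEF/FOS array and 15863 in the DEF/CT array, so both carriers were read in the upper part of the arrays' range. Rbp4 is also made by adipocytes, and the adipocyte hormone gene Adipoq had signals of 18.8 in DEF/FOS liver and 19.8 in DEF/CT liver, about the floor. Leptin (Lep) was at 0.519 in DEF/FOS liver and 1.05 in DEF/CT liver, below it. Of 10 adipocyte markers, 4 were above the floor, 2 positive and 2 negative, with summed signals of 322 in DEF/FOS liver and 314 in DEF/CT liver. The nuclear receptor gene Pparg, the 1 marker past 1.5-fold, was higher, at 43.2 in DEF/FOS liver and 28.3 in DEF/CT liver. Among all genes 6.75% were at least 1.5-fold higher. Resistin (Retn) had 21.7 in DEF/FOS liver and 5.89 in DEF/CT liver, below the floor by its mean. The part of adipocytes in the Rbp4 value was not tested.

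Lrat, which makes the retinyl esters stored in stellate cells, was somewhat lower in DEF/FOS liver. Its brighter probe set read 119 in DEF/FOS liver and 151 in DEF/CT liver, a difference of -0.33 that is within the SD of 0.36 for genes at that signal. Its other probe set read 10.3 in DEF/FOS liver, below the floor, and 27.3 in DEF/CT liver, so that it was at least 1.39-fold lower in DEF/FOS liver. Markers of stellate cells had a median difference of -0.13 over 18 members above the floor of 20 listed, with 12 negative and 6 positive by the brightest probe set. Among the negative ones, Hgf, Vim, Colec11 and Rgs5 had probe sets of both signs above the floor, so that split is not firm. The median over all genes was 0.00, a value largely set by the centring. The summed signal of the stellate cell markers was 4932 in DEF/FOS liver and 5494 in DEF/CT liver. At 1.5-fold, Gfap was higher, at least 1.64-fold, and the stellate cell globin Cygb was lower, 1.56-fold, in DEF/FOS liver. The part of stellate cell content in the Lrat value was not tested.

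The 2 retinol dehydrogenases differed in opposite directions. Rdh11, a microsomal enzyme that works mainly as a retinal reductase, had signals of 369 in DEF/FOS liver and 532 in DEF/CT liver by its brighter probe set. By the other it had 319 in DEF/FOS liver and 439 in DEF/CT liver. The probe sets gave -0.51 and -0.45, so both read Rdh11 lower in DEF/FOS liver, by 1.43-fold and 1.36-fold. Rdh16, a microsomal dehydrogenase of retinol and of steroids, had signals of 494 in DEF/FOS liver and 358 in DEF/CT liver, a difference of 0.48 (1.39-fold higher). Both genes exceeded the SD of 0.36 between probe sets at such signals and both fell short of 1.5-fold.

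Rdh16 belongs to a cluster of similar genes, and short probes may be shared among them. Its relative Rdh9 had signals of 2080 in DEF/FOS liver and 1412 in DEF/CT liver, a difference of 0.57, from a probe set whose type can match several transcripts. Rdh7 had 6279 in DEF/FOS liver and 6475 in DEF/CT liver, a difference of -0.03. Rdh16f2 differed by -0.01, with 774 in DEF/FOS liver and 786 in DEF/CT liver, and Rdh1 lay below the floor. Of the genes named here, which need not be the whole cluster, 2 were thus higher by about the same amount and 2 had nearly equal signals. How far Rdh16 and Rdh9 were read by the same RNA was not tested.

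Adh1, the main alcohol dehydrogenase of liver, which oxidises retinol as well as ethanol, had signals of 8771 in DEF/FOS liver and 8026 in DEF/CT liver. Its difference of 0.14 was within the probe set SD of 0.26. Adh4 had 1948 in DEF/FOS liver and 2048 in DEF/CT liver. Adh5, the glutathione-dependent formaldehyde dehydrogenase, had 3473 in DEF/FOS liver and 3936 in DEF/CT liver. These relatives differed by -0.06 and -0.17, both within the same SD. Adh7, the stomach and epithelial form, was read near the floor, at 27.6 in DEF/FOS liver and 35.8 in DEF/CT liver, with a second probe set at 0.01.

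Aldh1a1, which oxidises retinal to retinoic acid, had signals of 6681 in DEF/FOS liver and 5282 in DEF/CT liver. The difference of 0.35 (1.28-fold) was above the SD of 0.26 between probe sets and short of 1.5-fold. Aldh1a7, a close relative of Aldh1a1 in mouse with little activity towards retinal, had 4367 in DEF/FOS liver and 2943 in DEF/CT liver, a difference of 0.58 that just missed 1.5-fold. Whether the probe sets of this pair share RNA was not tested. The other retinoic acid makers, Aldh1a2 and Aldh1a3, were below the floor by their mean signal. Aldh1a2 had 11.9 in DEF/FOS liver and 14.4 in DEF/CT liver, and Aldh1a3 had 1.83 in DEF/FOS liver and 21.8 in DEF/CT liver.

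Cyp26a1, the retinoic acid hydroxylase whose DR5 is shown above, had signals of 67.1 in DEF/FOS liver and 72.8 in DEF/CT liver. The difference of -0.10 was smaller than the SD of 0.52 at such signals. Cyp26b1, the second enzyme of that kind, had 49.8 in DEF/FOS liver and 54.5 in DEF/CT liver, a difference of -0.11. Neither hydroxylase differed beyond the spread between probe sets, at signals where that spread is wide.

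**Figure D2:**
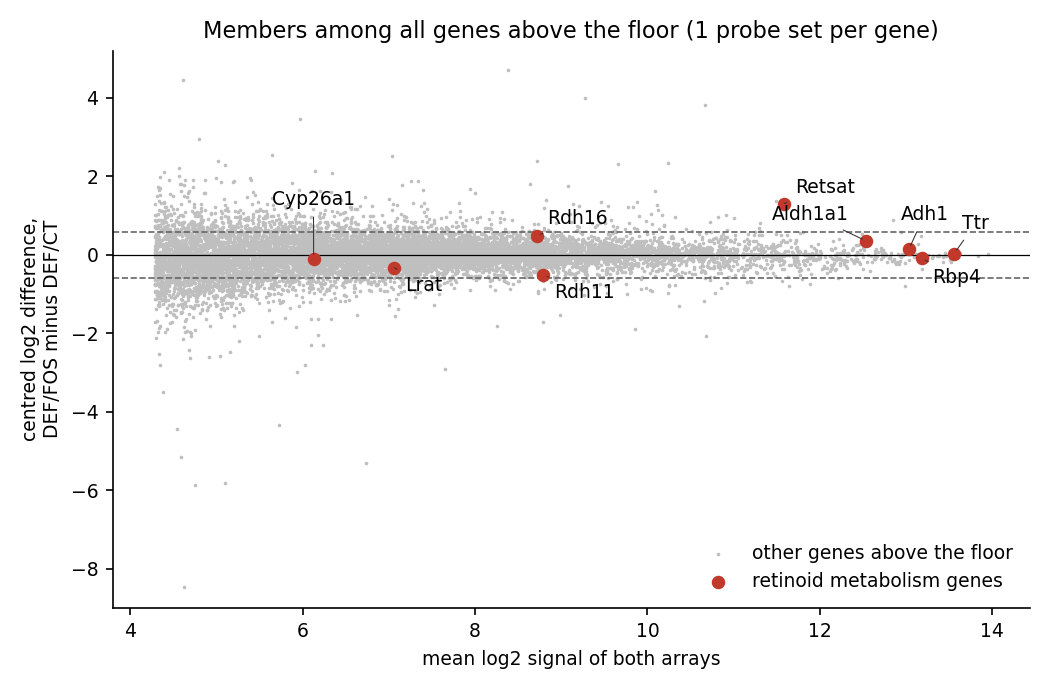
Centred log2 difference, DEF/FOS minus DEF/CT, against the mean log2 signal of both arrays for 11163 genes above the floor (grey, 1 probe set each), with the 9 members in red and dashed lines at 1.5-fold. Retsat at 1.31 lies above most genes at its signal, while the other members lie between the dashed lines, from -0.51 (Rdh11) to 0.48 (Rdh16).

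Counted together, 1 of the 9 members was at least 1.5-fold higher in DEF/FOS liver, where 6.75% of all genes were, and 0 were at least 1.5-fold lower, where 7.82% were. Since the members were chosen with this comparison known, nothing is read from that count. Their median difference was 0.03, with 5 positive and 4 negative, and it was -0.03 over the 8 members without Retsat, with 4 of each sign. The median over all genes above the floor was 0.00, a value largely set by the centring. By their signs, the 9 members thus did not share a direction in these arrays. For Ttr, Rbp4, Cyp26a1, Adh1 and Lrat the difference was smaller than the SD between probe sets at such signals. Little is read from the signs of those genes, and the Ttr probe sets had both signs. Beyond that SD, Retsat, Rdh16 and Aldh1a1 were positive and Rdh11 was negative.

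The remaining genes of the pathway were taken from 4 lists compiled for this work, of 52 genes in all, of which 37 were above the floor, 10 were below it and 5 lacked a probe set of their own. Of the 37, 3 were at least 1.5-fold higher in DEF/FOS liver, where 6.75% of all genes were, and 0 at least 1.5-fold lower, where 7.82% were. Their differences ran from -0.53 to 1.25 with a median of 0.00, 18 positive and 19 negative. The 3 were Aox1, Dhrs4 and Rxrg, a count near the share among all genes. Dhrs4 and Rxrg lay just past 1.5-fold, at 0.60 each, and each fell under it in some settings: Dhrs4 at 0.58 after quantile normalization or with the stricter floor and at 0.58 with the median over its probe sets, and Rxrg at 0.58 without centring and at 0.41 with an offset of 16.

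Among 13 retinol and retinal oxidoreductases above the floor, 1 was at least 1.5-fold higher and the median was -0.01. Among all genes 6.75% were that much higher, so nothing is read from a count of 1 in 13. That gene was Dhrs4, a peroxisomal NADPH-dependent retinal reductase, with signals of 1798 in DEF/FOS liver and 1196 in DEF/CT liver. Its second probe set, at 1337 in DEF/FOS liver and 922 in DEF/CT liver, gave 0.55 beside 0.60. Dhrs3, a retinal reductase known to be induced by retinoic acid and named here after its values were seen, was lower, at 630 in DEF/FOS liver and 853 in DEF/CT liver (-0.42). It had the same sign as Rdh11, which also reduces retinal, and the opposite sign to Dhrs4.

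Among 5 genes of retinal oxidation and retinoic acid clearance above the floor, 1 was at least 1.5-fold higher. Among all genes 6.75% were that much higher, so nothing is read from a count of 1 in 5. Aox1, an aldehyde oxidase that can oxidise retinal, had signals of 1148 in DEF/FOS liver and 488 in DEF/CT liver, a 2.38-fold difference from a single probe set. Its relative Aox3, among the 2 genes of highest mean signal in this list, went the other way. It had 1825 in DEF/FOS liver and 2659 in DEF/CT liver, with a difference of -0.53. Aldh8a1, which prefers the 9-cis form of retinal and is not among those 2, had 1936 in DEF/FOS liver and 2298 in DEF/CT liver. Its 2 probe sets differed in sign, -0.23 and 0.07. The list as a whole had a median of -0.11.

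Binding, uptake, esterification and ester hydrolysis had 14 genes above the floor, with a median of 0.08, 8 positive and 6 negative. By the brightest probe set, 0 of them were 1.5-fold apart in either direction. Among all genes 6.75% were that much higher and 7.82% lower, so nothing is read from a count of 0 in 14. The differences ran from -0.46 to 0.41. The carboxylesterase Ces1c had 8692 in DEF/FOS liver and 8111 in DEF/CT liver. Ces1d, named after its values were seen, was positive in all 3 of its probe sets, at 0.28 by the brightest, 0.60 and 0.36. The one at 0.60, past 1.5-fold, read 3100 in DEF/FOS liver and 2072 in DEF/CT liver. Fabp5, a fatty acid binding protein that also binds retinoic acid, had 3921 in DEF/FOS liver and 5136 in DEF/CT liver (-0.37). Its second probe set, at 1458 in DEF/FOS liver and 2330 in DEF/CT liver, gave -0.66, past 1.5-fold on the lower side. The ends of that range are named after their values were seen. The hormone-sensitive lipase gene Lipe was highest, at 75.6 in DEF/FOS liver and 57.6 in DEF/CT liver (0.41). Lowest were 2 genes: Stra6l, the liver receptor for Rbp4, had 757 in DEF/FOS liver and 1048 in DEF/CT liver (-0.45), and the carotenoid-cleaving oxygenase Bco2 had 127 in DEF/FOS liver and 176 in DEF/CT liver (-0.46). Rbp2, Rbp7, Crabp1, Crabp2 and Stra6 lay below the floor.

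Of 6 receptor genes, 5 were above the floor. Rxra, the main RXR of liver and the partner of RAR and PPARα alike, had signals of 675 in DEF/FOS liver and 721 in DEF/CT liver, and Rxrb had 171 in DEF/FOS liver and 210 in DEF/CT liver. Rxrg, a form known from muscle and brain, was 1.51-fold higher at low signals of 43.4 in DEF/FOS liver and 29.0 in DEF/CT liver, and the spread between probe sets there was 0.52. Rarb, itself a retinoic acid target, was almost the same in the pools, at 27.8 in DEF/FOS liver and 28.0 in DEF/CT liver. These signals are near the floor, where the spread between probe sets is likewise 0.52. Rarg, the other RAR gene above the floor, gave 0.20 and -0.18 by its 2 probe sets. Rara lay below the floor by its mean signal.

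**Figure D3:**
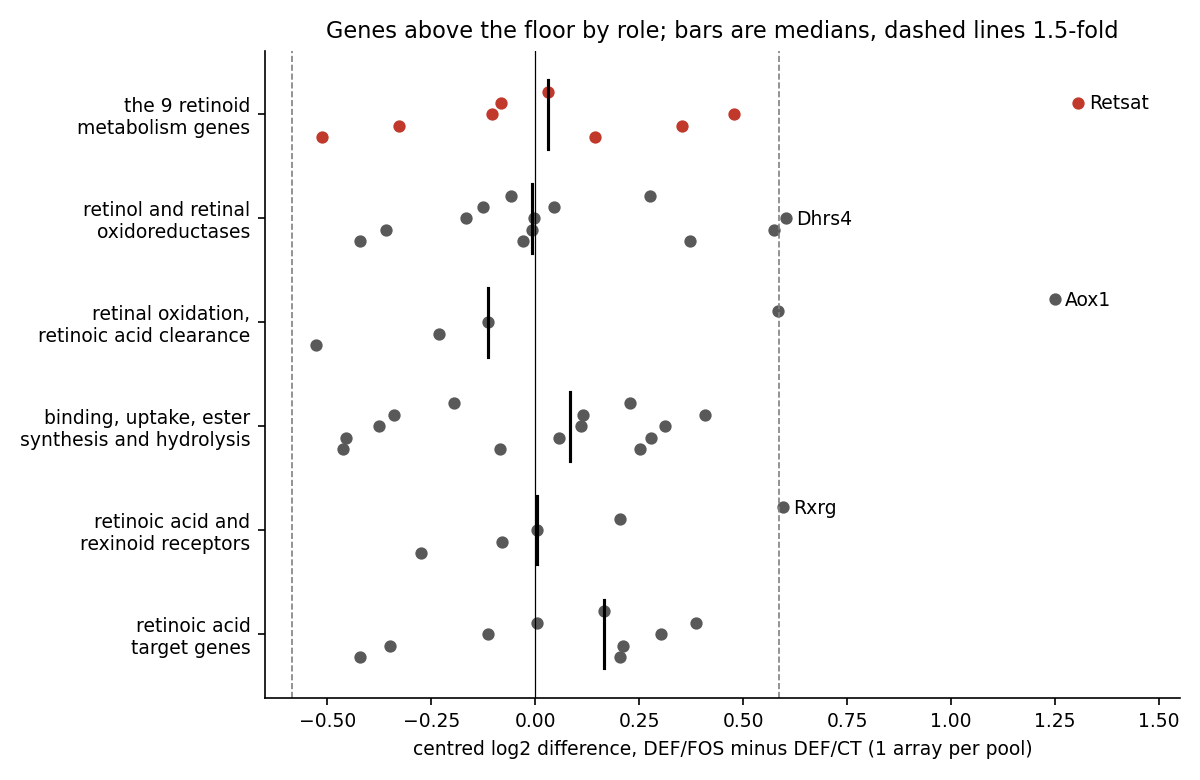
Centred log2 difference, DEF/FOS minus DEF/CT, of the brightest probe set of each gene above the floor, grouped by role. The 9 members are in red, list medians are vertical bars and 1.5-fold is shown by dashed lines. Retsat (1.31), Aox1 (1.25), Dhrs4 (0.60) and Rxrg (0.60) are the genes beyond 1.5-fold, all on the DEF/FOS side.

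A list of 15 genes known or reported to respond to retinoic acid, Cyp26a1 left out, had 9 above the floor. By the brightest probe set, 0 of the 9 were at least 1.5-fold apart in either direction. Among all genes 6.75% were that much higher and 7.82% lower, so nothing is read from a count of 0 in 9. The median of the 9 was 0.16, with 6 positive and 3 negative. Ugt2b5, a glucuronosyltransferase, had 7084 in DEF/FOS liver and 6386 in DEF/CT liver. Pck1, which encodes the gluconeogenic enzyme PEPCK, had 3819 in DEF/FOS liver and 4913 in DEF/CT liver, a difference of -0.35. Tissue transglutaminase, Tgm2, named after its values were seen, was higher in DEF/FOS liver in all 5 of its probe sets, by 0.32 to 1.22, with 911 in DEF/FOS liver and 705 in DEF/CT liver by the brightest. Dhrs3 and Cyp26b1, both in this list too, were on the negative side, so the targets did not share a direction.

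Markers of whole cell types were read from the same arrays. Among all genes 6.75% were at least 1.5-fold higher in DEF/FOS liver and 7.82% at least 1.5-fold lower. Hepatocyte markers had a median of -0.05 over 10 members, with 0 at 1.5-fold and albumin (Alb) at 11023 in DEF/FOS liver and 11303 in DEF/CT liver. Beside those shares, nothing is read from a count of 0 in 10. Skeletal muscle markers were far lower in DEF/FOS liver, in 12 of 13 members at 1.5-fold, with summed signals of 199 in DEF/FOS liver and 2876 in DEF/CT liver, and the myoglobin gene Mb, below the floor by its mean, at 1.18 in DEF/FOS liver and 317 in DEF/CT liver. Kupffer cell markers were positive in 9 of 12, with a median of 0.21 and summed signals of 4664 in DEF/FOS liver and 4003 in DEF/CT liver. The scavenger receptor gene Marco, the 1 of them past 1.5-fold, had 131 in DEF/FOS liver and 61.6 in DEF/CT liver. Bile duct markers had 3 of 8 above the floor, all 3 positive, Krt19 at least 1.36-fold higher, with summed signals of 105 in DEF/FOS liver and 80.1 in DEF/CT liver. The part of these cell types in the retinoid gene values was not tested.

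**Figure D4:**
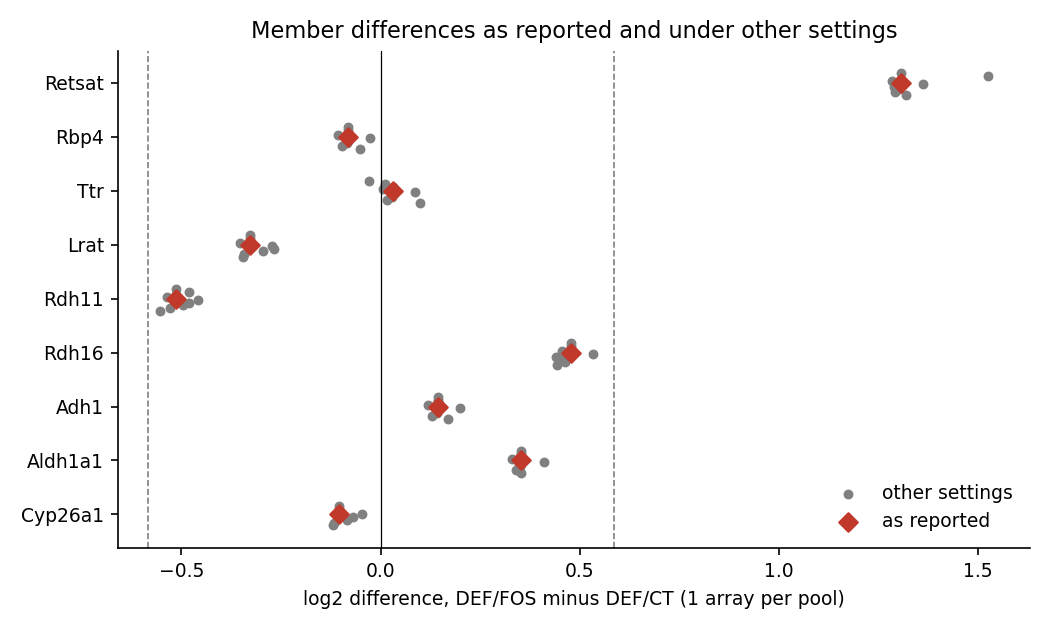
Log2 difference, DEF/FOS minus DEF/CT, of the 9 members as reported (red diamonds) and under the other settings of processing (grey points), with 1.5-fold as dashed lines. Retsat stays between 1.28 and 1.53 and Rdh11 between -0.55 and -0.46, while Ttr lies on both sides of 0.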

How the data were processed

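Liver RNA pooled within each group was measured on 1 Affymetrix array per group, 2 in all, per the labels' protocols. The deposited values are MAS5 signal intensities, and MAS5 and GCOS are named without versions in the submitters' processing notes. Both arrays had the same mean signal, 100.0, once 2% of values at either end were trimmed, which is how the deposited intensities were scaled. The values file used here has no detection column, and the number of arrays limits precision.

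Of the probe sets, 34945 had 1 gene symbol, 932 had several and were not used for genes, and 64 were controls. The platform annotation can be old. Entrez identifiers matched a RefSeq table of GRCm38.p6, used for names and neighbours, for 34741 probe sets, and 0 symbols changed.

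Log2 differences without an offset were centred on their median, which was -0.01, and given per gene by the brightest probe set. A fold with 1 of the 2 signals below the floor was taken against the floor and is written "at least". Named were all members, pathway and target list genes 1.5-fold apart, the 2 genes of highest mean signal in each such list, relatives of Rdh16, Aldh1a1 and Adh1, and the 3 genes nearest to a member 1.5-fold apart. Clone and model names were left out of the nearest genes. Members and lists were chosen with earlier results of these data known. The procedure, in Python 3.11.15 with numpy 2.4.6 and pandas 2.3.3, was tested on simulated data. The simulated noise was smaller than the SD between probe sets here. That test therefore checks the calculation only and says nothing on how repeatable the reported differences are.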

Additional observations from a re-analysis of the deposited data

How the results depend on the processing

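No paired analysis was possible because each group is 1 pooled array. Over the reported setting and 9 alternatives (quantile normalization, no centring, offsets of 16 and 32, no floor, a floor at the 75th percentile, signals below the floor set to it, the median over probe sets, and no _x_at or _s_at probe sets), Retsat stayed the only member past 1.5-fold. Its difference ran from 1.28 to 1.53, highest with the median over its probe sets. Rdh16 ran from 0.44 to 0.53, Aldh1a1 from 0.33 to 0.41, Adh1 from 0.12 to 0.20, Rbp4 from -0.11 to -0.03, Lrat from -0.35 to -0.27 and Rdh11 from -0.55 to -0.46. Ttr ran from -0.03 to 0.10 and was positive in 9 of 10 settings, the exception being that without _x_at and _s_at probe sets. Cyp26a1, from -0.12 to -0.05, was below the stricter floor and has 9 values.

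The counts of all genes at least 1.5-fold higher and lower, 754 and 873 as reported, were 435 and 458 with an offset of 16, 278 and 258 with an offset of 32, 2856 and 3546 with no floor, and 244 and 212 with the floor at the 75th percentile and the centring redone there. Other pathway genes at least 1.5-fold higher, 3 as reported, numbered 7 with no floor, 1 with the stricter floor, and 2 with no centring, with either offset and with the median over probe sets. Of the named ones, Aox1 stayed past 1.5-fold in all 10 settings, Dhrs4 fell under it after quantile normalization, with the stricter floor and with the median over probe sets, and Rxrg fell under it without centring and with either offset. At least 1.5-fold lower were 3 with no floor. The genes counted numbered 18193 with no floor and 6751 with the stricter one, and an offset by construction shrinks differences at low signals. Genes whose brightest signal lies between 19.4 and 84.3, Cyp26a1 and Rxrg among them, have a probe set SD of 0.52, wider than that of brighter genes.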

Other observations

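The genes beside Retsat on its chromosome did not share its difference. Of the 3 protein-coding genes on each side in RefSeq order, Tgoln1, next to it, had signals of 1698 in DEF/FOS liver and 1708 in DEF/CT liver, a difference of 0.01. Elmod3, on the other side, had 85.7 in DEF/FOS liver and 108 in DEF/CT liver (-0.32). Capg had 34.7 in DEF/FOS liver and 27.2 in DEF/CT liver (0.36), Kcmf1 differed by 0.35 and Tcf7l1 by -0.67, and Sh2d6 lay below the floor.

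A further probe set is annotated to Rdh16 together with the pseudogene Rdh18-ps and was therefore not counted as a member. It read 20.2 in DEF/FOS liver and 31.0 in DEF/CT liver, the opposite direction to the Rdh16 probe set, at a level close to the floor.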
